A study of Mus musculus with 55 samples.

Results

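Allelic expression was examined in 3 embryos that developed from [Dnmt3aADD/ADD, Dnmt3LADD/ADD] oocytes fertilized with JF1 spermatozoa. The genes described are those on the autosomes with at least 100 allelic counts in each embryo, both alleles summed, which left 7208 of the 24421 genes listed. An allelic count is a sequenced fragment assigned to the maternal or the paternal chromosome by a strain polymorphism, and the maternal share of a gene is the percentage of its allelic counts that came from the maternal allele. A share of 50% means equal output of both alleles, a share over 66.7% means over 2-fold more maternal than paternal counts, and a share under 33.3% means the opposite.

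The oocytes carried 2 homozygous mutations in the ADD domains, the modules by which both proteins bind histone H3, namely the allele labelled Dnmt3aADA and the D124A substitution in Dnmt3L. The mutant mice had been backcrossed to C57BL/6J, and the paternal genome was wild type and came from JF1, an inbred strain of Japanese origin. Every embryo thus carried 1 mutant and 1 wild-type copy of both genes. Oocytes were taken from females aged 11 to 18 weeks after hormone injection and fertilized in vitro. Two-cell embryos were transferred to pseudo-pregnant ICR females and recovered on day 9.5 by the study's methods, or day 9 by the labels. Any tissue of the recipient that stayed with an embryo would therefore come from another mouse stock, ICR. The series holds 55 samples, of which 52 are single oocytes, either wild type or homozygous for 1 or both of the mutations. Embryos are numbered by their replicate number, and nothing in the labels says whether they shared a donor or a recipient. Since no wild-type embryo entered the comparison, a difference between C57BL/6J and JF1 alleles, a parent-of-origin effect and an effect of the mutations cannot be told apart for any single gene.

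In mammals an imprinted gene is read from only 1 parental allele, and the choice is written as DNA methylation in the germ line. DNMT3A, the enzyme, and DNMT3L, its cofactor without catalytic activity, place this methylation during oocyte growth. At most imprinted domains the mark is set in the oocyte, and it silences the maternal copy of genes such as Peg3 or Mest. At a few domains, H19-Igf2 and Dlk1-Meg3 among them, it is set in the male germ line, and H19 and Meg3 are read from the unmethylated maternal copy while Igf2 and Dlk1 are read from the paternal copy.

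The 3 libraries held 7534598, 8547786 and 6998944 allelic counts in embryos 1, 2 and 3. The 7208 genes took 92.9%, 89.5% and 93.8% of them, with a median of 526, 580.5 and 485 counts per gene. At these counts chance in the counting alone gives shares an SD of 2.54, 2.42 and 2.64 percentage points. Intervals given for single shares are 95% Wilson intervals and cover counting error only, because fragments copied by PCR cannot be told from separate molecules here.

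The libraries differed in the tissues that they held. Heart markers (Tnnt2, Myh6, Myh7, Nppa and Actc1) summed to 1297 allelic CPM (counts per 1000000 allelic counts) in embryo 1 but to 32.3 and 80.2 in embryos 2 and 3, and markers of embryonic red cells (Hbb-y, Hbb-bh1 and Hba-x) to 3721 against 10.6 and 4.29. Neural and mesodermal markers were present in all 3, at 516, 102 and 225 and at 395, 138 and 313 CPM. Markers of yolk sac and liver endoderm ran the other way, at 102, 1912 and 783 CPM, and Alb was at 0 in all 3. Trophoblast markers stayed at 7.14 CPM or less. In bulk libraries, fewer cells of a type and less RNA per cell cannot be told apart. Uterine and decidual markers summed to 21.2, 97.7 and 19 CPM, and in embryo 2 their counts were 84.8% maternal against 38.1% and 48.1%. Of the 835 counts of these markers in embryo 2, Esr1 gave 493 and Pgr, on chromosome 9, gave 200. Prl8a2 and Prl3c1 also had most counts in embryo 2, while Cryab and Wnt4 had most in embryo 1. Of 7 leukocyte genes in the tables, 3 were detected in embryo 2 with 362 counts, 97.8% of them maternal, while embryo 1 had 0 and embryo 3 had 6. The 4 adult globin genes were at 0 everywhere. Since an allelic count needs a strain polymorphism, a 0 in all 3 embryos, as for these genes and Alb, does not show that a gene was silent. None of the globin, uterine, decidual or leukocyte genes on the lists had 100 counts in each embryo, so none is among the genes described below.

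The median maternal share over the 7208 genes was 51.2% in embryo 1, 57.1% in embryo 2 and 51.2% in embryo 3 (mean 53.2%, SD 3.42, n = 3). Embryos 1 and 3 were almost the same in this respect and embryo 2 was higher. The interquartile range over genes was 47.8% to 54.9% in embryo 1, 52.4% to 63.8% in embryo 2 and 47.4% to 55.2% in embryo 3. Shares of 40% to 60% were held by 87.1%, 60.9% and 85.0% of genes, and 3814 genes (52.9%) lay in that range in all 3 embryos. In embryos 1 and 3 alone 5679 genes (78.8%) did so. With 3 embryos a two-sided exact sign-flip permutation test of the median against 50% cannot go below 0.25, so that no test was made.

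**Figure D1:**
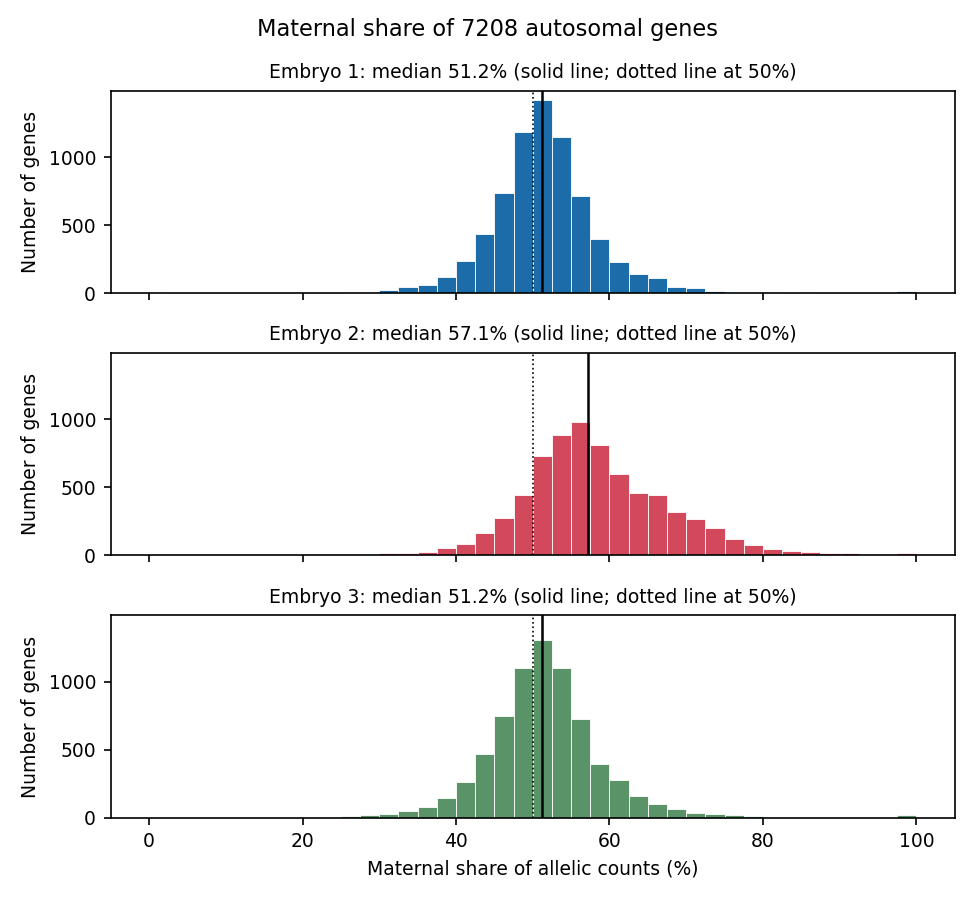
Number of autosomal genes (y axis) by maternal share in percent (x axis, bins of 2.5 points) for each of the 3 embryos, over the same 7208 genes. The peaks of embryos 1 and 3 sit near 51.2%, while the distribution of embryo 2 is shifted to a median of 57.1% and is wider, with 1315 genes over 66.7%.

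The spread between genes was larger than counting error in every embryo, with an SD of 7.55, 9.96 and 7.95 points. In embryo 1 the SD was 10.6 points for genes with a mean of 100 to 200 counts, 5.27 points for those with 1000 to 5000, where counting error alone gives 1.31, and 8.84 points for the 156 genes over 5000. In embryos 2 and 3 it was likewise lowest at 1000 to 5000 counts. The gene-to-gene pattern was shared between embryos to a degree. Across genes, which are not independent replicates, Pearson's r of the shares was 0.667 between embryos 1 and 3, 0.497 between 1 and 2 and 0.519 between 2 and 3.

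Embryo 2 stood apart on 2 chromosomes. Its median share was 70.4% on chromosome 6 and 70.1% on chromosome 9, against 55.4% to 57.4% for the remaining 17 autosomes. Embryo 1 had chromosome medians of 50.2% to 52.4% and embryo 3 of 50.6% to 52.2% over all 19. The shift ran along the whole of both chromosomes. In successive groups of 35 to 44 genes the median share in embryo 2 stayed between 68.3% and 71.6% on chromosome 6 and between 68.2% and 72.6% on chromosome 9. A maternal to paternal ratio of 2.38 on chromosome 6 and 2.34 on chromosome 9 corresponds to these medians. Levels of each allele were also scaled to the allelic total of the remaining 17 autosomes, with a small constant added to the counts. Genes needed at least 10 counts of each allele in each embryo here. Maternal log2 levels in embryo 2 exceeded the mean of the other embryos by medians of 0.89 on chromosome 6 and 0.88 on chromosome 9. The medians of the other autosomes were -0.00 to 0.10. Paternal levels differed by a median of -0.23 on chromosome 6 and -0.25 on chromosome 9, which is within the -0.25 to -0.20 of the other autosomes.

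**Figure D2:**
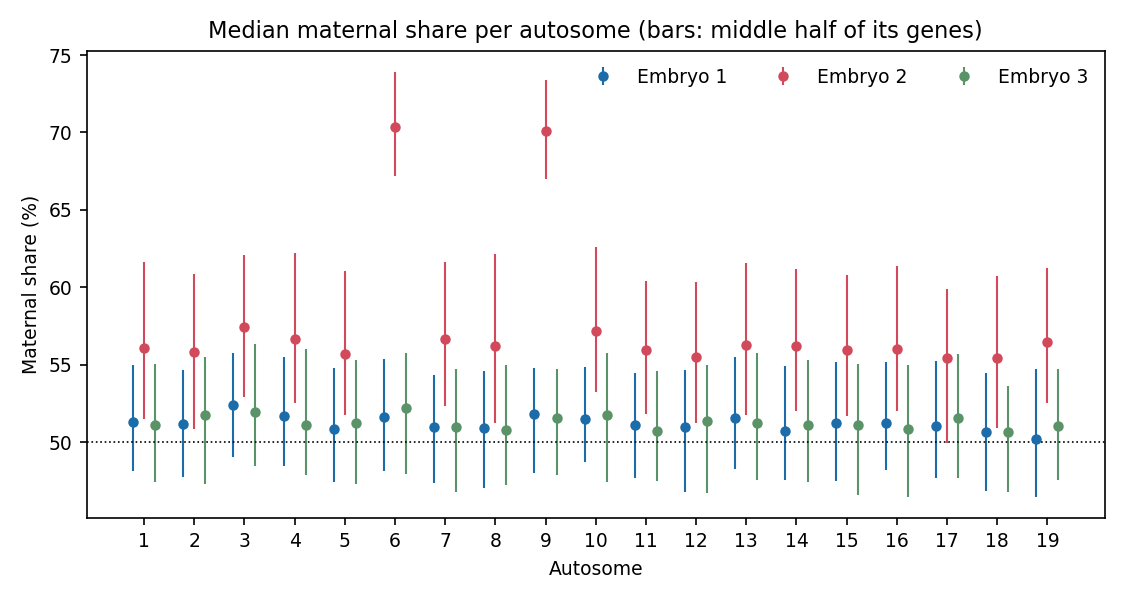
Median maternal share in percent (points, y axis) of the genes on each autosome (x axis), with the interquartile range as a bar, for the 3 embryos. Chromosomes 6 and 9 of embryo 2 stand at 70.4% and 70.1%, and the other 17 autosomes of that embryo lie between 55.4% and 57.4%.

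On the remaining autosomes the excess of maternal counts in embryo 2 moved with how strongly a gene was expressed there. Genes were grouped by the ratio of their level in an embryo to the mean of the other embryos, with chromosomes 6 and 9 left out. Here genes needed 100 counts only in the embryo concerned. For genes up to 2-fold above the other embryos the median share in embryo 2 was 58.4%, for 2- to 4-fold it was 66.9%, for 4- to 8-fold 80.9%, and for the 156 genes over 8-fold it was 96.6%. In embryo 1 the same groups had medians of 51.1%, 52.0%, 51.1% and 52.0%. Only 4 of those 156 genes reached 100 counts in each embryo. The genes of highest ratio, chosen after their values were seen, included C3, the highest, with 38124 counts in embryo 2 (81.6% maternal) against 4 and 11. Prap1 had 85283 counts there (99.6%) against 2 and 49. Spp1, the secreted phosphoprotein osteopontin, had 26178 counts (88.8%) against 27 and 20. Pigr, the receptor that carries polymeric immunoglobulin across epithelia, had 4763 counts (99.7%) against 0 and 4. The 6106 genes that lay within 2-fold of the other embryos and outside chromosomes 6 and 9 had medians of 51.2%, 56.1% and 51.1%. The part of recipient tissue in these shares was not tested, and neither was the cause of the shift on chromosomes 6 and 9.

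Genes of the domains that are methylated in the male germ line were biased to 1 allele. Of the 9 listed genes of these domains, 6 had enough counts. In all 3 embryos H19, Meg3, Rian and Mirg had shares over 66.7% and Igf2 and Dlk1 under 33.3%, so none of the 6 fell between these limits in any embryo. Among all 7208 genes, 102 (1.42%) were over 66.7% and 25 (0.347%) under 33.3% in every embryo.

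H19, a noncoding RNA on the maternal allele (chr7:142575529-142578143, minus strand, build mm10), was 98.8% maternal of 30641 counts in embryo 1, 96.1% of 49762 in embryo 2 and 75.4% of 32873 in embryo 3 (mean 90.1%, SD 12.8, n = 3). Igf2, the fetal growth factor next to it (chr7:142650766-142666816, minus strand), was 0.488% maternal of 11689 counts, 2.31% of 10654 and 11.8% of 5319. Embryo 3 was thus the least biased for both genes, and the 3 intervals for H19, 98.7% to 99%, 95.9% to 96.3% and 75% to 75.9%, do not overlap. Igf2os, which runs antisense over Igf2 (chr7:142659693-142670356, plus strand), followed the same order at 0%, 2.83% and 25% of 130, 247 and 124 counts. Its 0 in embryo 1 allows a share of up to 2.31%, and reads of an antisense gene and its partner can be told apart only where counting used the strand, which is not stated. Mrpl23, a mitochondrial ribosomal protein gene that lies beside H19 (chr7:142532686-142540747, plus strand), was 0.826%, 1.92% and 1.64% maternal of 121, 104 and 122 counts, with little spread between embryos. A pseudogene, Mrpl23-ps1, matched it at 100% identity.

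On chromosome 12, Meg3 (chr12:109541001-109571726, plus strand) was 99.8%, 99.9% and 97.6% maternal of 964, 1763 and 946 counts. Rian, the next noncoding RNA of the cluster (chr12:109603940-109661716, plus strand), was at 99.4%, 99.9% and 97.8% of 2704, 3750 and 2555 counts. Mirg, a host of microRNAs further along (chr12:109729764-109749460, plus strand), was at 93.4%, 100% and 96.9% of 136, 363 and 196 counts. These noncoding genes stayed over 93% in every embryo. Dlk1, the paternally read gene of the domain and an inhibitor of adipocyte differentiation (chr12:109452823-109463336, plus strand), was at 9.17%, 7.34% and 13.3% of 654, 504 and 196 counts. Among genes biased in the same direction, there were 2 runs of at least 3 whose neighbours start within 1000000 bases of each other. Meg3, Rian and Mirg form the maternal run, and Mrpl23, Igf2 and Igf2os the paternal run, which spans chr7:142532686-142670356 and has H19, biased the other way, inside it.

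The alleles were also tested against each other in a blocked design, with 1 term for each embryo, by edgeR's quasi-likelihood method. This fit took in 10805 genes with at least 10 allelic counts in each embryo. A gene was called at a Benjamini-Hochberg adjusted p under 0.05 and a fold change over 2. Of the 6 genes of the paternally methylated domains, Dlk1 was called, at a log2 ratio of maternal to paternal counts of -3.23 (SE 0.252, edgeR adjusted p = 0.0261). Meg3 had a log2 ratio of 7.34 and Rian of 7.24, both at an edgeR adjusted p of 0.0828, and with the alleles scaled by TMM both passed, at 0.0485 and 0.0481. H19, at 4.30 (SE 1.11), had an edgeR adjusted p of 0.197 and Igf2, at -5.30 (SE 1.09), of 0.161. The ratios of these last genes were large in every embryo but differed between embryos more than those of Dlk1.

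**Figure D3:**
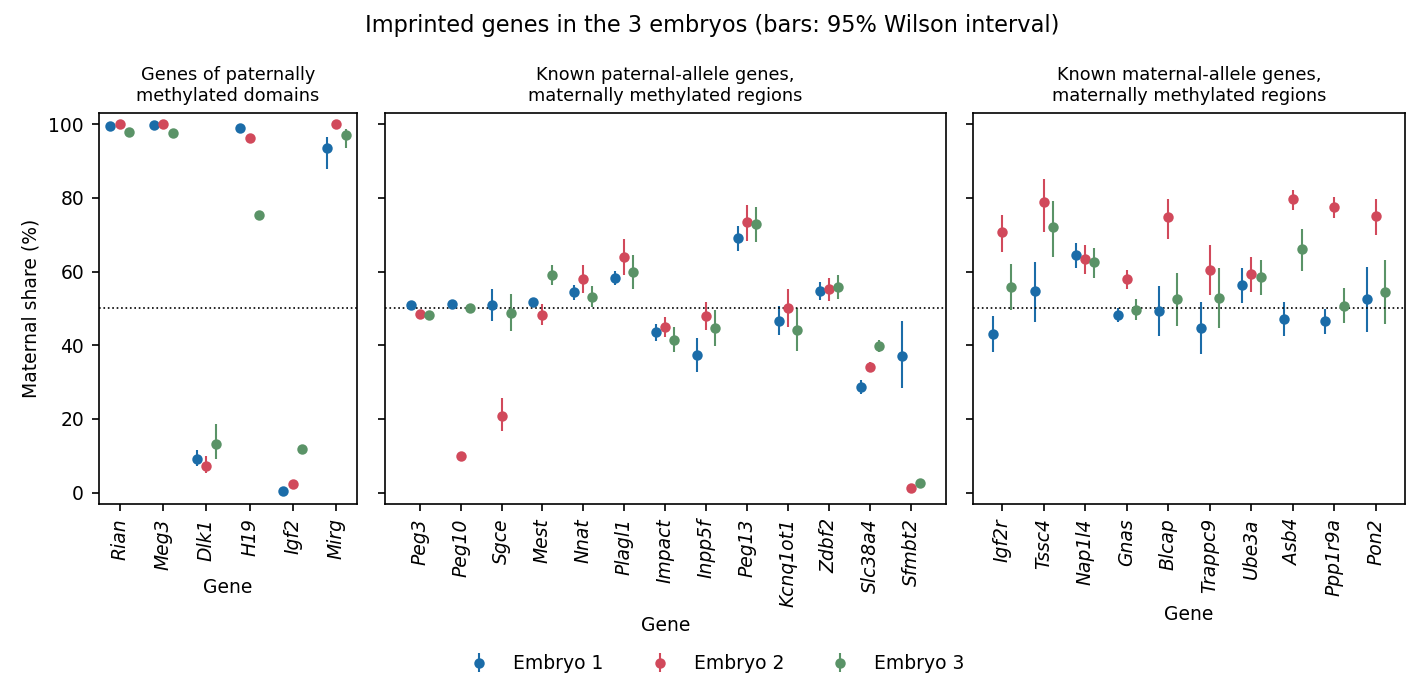
Maternal share in percent (y axis) in embryos 1, 2 and 3 (points, with 95% Wilson intervals as bars) for imprinted genes with at least 100 allelic counts in each embryo, in 3 panels: paternally methylated domains, paternal-allele genes and maternal-allele genes of maternally methylated regions. The first panel is split into shares over 75% and under 14%, whereas 16 of the 23 genes in the other panels lie at 40% to 60% in embryos 1 and 3. The paternal-allele panel includes Slc38a4 and Sfmbt2, whose imprint rests on a histone mark of the oocyte.

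The genes that are normally read from the paternal allele under a maternally methylated control region gave a different picture. Of 28 listed genes 13 had enough counts, and 0 of them were under 33.3% in all 3 embryos, against 0.347% of all genes. The 13 include Slc38a4 and Sfmbt2, whose imprint is known to rest on a histone mark of the oocyte instead. Both are in the counts given here, and both lay under 40% in embryos 1 and 3. Shares of 40% to 60% in embryos 1 and 3 were held by 9 of the 13 (69.2%), against 78.8% of all genes, and 6 of the 13 (46.2%) lay there in all 3 embryos, against 52.9%. None of the 13 was called by edgeR's test, which called few genes of any kind (0.499% maternal and 0.166% paternal). Their median log2 ratio was -0.17, beside 0.19 over all genes.

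Peg3, a zinc finger gene with the deepest counts of the group, was 50.9%, 48.5% and 48.1% maternal of 15766, 11883 and 9565 counts, and its intervals span 47.1% to 51.7%. Mest, a hydrolase-like gene of mesoderm, was at 51.6%, 48.3% and 59.1% of 5594, 1264 and 1369 counts. Kcnq1ot1, the noncoding RNA that silences its neighbours on the paternal chromosome, was at 46.7%, 50.1% and 44.2% of 636, 371 and 276 counts. Zdbf2 (54.7%, 55.2% and 55.9%) and Nnat (54.3%, 58.0% and 53.2%) were also close to even. Impact (43.5%, 44.9% and 41.5%) and Inpp5f (37.4%, 47.9% and 44.7%) lay somewhat lower and Plagl1, a zinc finger gene linked to growth control, somewhat higher (58.2%, 64.0% and 59.9%). Among these genes only Inpp5f in embryo 1 and Plagl1 in embryo 2 left the range of 40% to 60%.

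Peg10 and Sgce, which share 1 control region on chromosome 6, differed between embryos. Peg10, a retrotransposon-derived gene needed for the placenta (chr6:4747306-4760517, plus strand), was 51.2% maternal of 8391 counts in embryo 1 and 50.1% of 13433 in embryo 3, but 9.97% of 11189 in embryo 2 (interval 9.42% to 10.5%). Sgce, which encodes a sarcoglycan, was at 51.0%, 20.9% and 48.8% of 502, 316 and 389 counts. Both were low in the embryo whose chromosome 6 was otherwise shifted to the maternal allele. In that embryo the maternal-allele genes of the same cluster were at 79.6% (Asb4), 77.4% (Ppp1r9a) and 75.1% (Pon2).

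Peg13, a noncoding RNA on chromosome 15, went the opposite way from its name and was 69.1%, 73.4% and 73.0% maternal of 728, 305 and 348 counts, with a log2 ratio of 1.35 (SE 0.165) and an edgeR adjusted p of 0.0718. Slc38a4 and Sfmbt2, known for an imprint that rests on a histone mark of the oocyte, had the lowest mean shares of the group. Slc38a4, an amino acid transporter, was at 28.7%, 34.1% and 39.7% of 2080, 4110 and 3403 counts. Sfmbt2, a Polycomb-related gene of extraembryonic tissue, was at 37.0% of only 108 counts in embryo 1 (interval 28.5% to 46.4%) and at 1.16% and 2.67% of 2337 and 2511 counts in embryos 2 and 3, with an edgeR adjusted p of 0.229. The embryos with a low share of Sfmbt2 were those with more yolk sac and endoderm transcripts, and the part of tissue makeup in this was not tested.

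Of 27 listed genes of these domains that are normally read from the maternal allele, 26 were in the tables and 10 had enough counts. None was over 66.7% in all 3 embryos, against 1.42% of all genes. None was called by edgeR's test, against 0.499% maternal and 0.166% paternal calls over all genes. In embryos 1 and 3, 7 of the 10 (70%) lay at 40% to 60%, against 78.8% of all genes. In all 3 embryos only 2 (20%) lay there, against 52.9%. Their median share in embryo 2 was 72.7%, beside 57.1% over all genes, and their median log2 ratio was 0.53, beside 0.19. In embryos 1 and 3 Gnas, which encodes a G protein subunit, was at 48.1% and 49.6%, and Igf2r, the receptor that clears IGF2, at 43.0% and 55.9%. In embryo 2 Gnas was at 57.8% and Igf2r at 70.6%. Nap1l4, a histone chaperone gene, was at 64.4%, 63.4% and 62.5% and so stayed just under the 2-fold limit in all embryos (edgeR adjusted p = 0.121). Tssc4 rested on few counts (141, 123 and 133), and its shares of 54.6%, 78.9% and 72.2% varied widely. Ube3a, a ubiquitin ligase gene whose imprint is known from neurons, was at 56.3%, 59.3% and 58.4%, Trappc9 at 44.6%, 60.5% and 52.9% and Blcap at 49.3%, 74.7% and 52.4%.

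The genes that write, keep or read DNA methylation were mostly close to even in embryos 1 and 3. All 9 listed genes had enough counts, 8 of them lay at 40% to 60% in embryos 1 and 3, where 78.8% of all genes lay, and 0 were called, as were few genes of any kind (0.499% maternal and 0.166% paternal). The exception was Tet2, at 53.8%, 60.9% and 37.9% of 266, 138 and 132 counts. Dnmt3b, the other de novo methyltransferase gene, was at 48.3%, 48.9% and 50.7% of 2090, 8350 and 10247 counts, and Trim28, a corepressor that protects imprints, at 48.9%, 52.1% and 50.4%. Dnmt1 and Zfp445, both on chromosome 9, and Tet3, on chromosome 6, were at 66.1%, 71.7% and 76.1% in embryo 2 and between 47.9% and 53.2% in the others. Of the mutated genes, Dnmt3a was at 55.9%, 50.8% and 51.6% of 699, 573 and 570 counts. Dnmt3l had 0 counts in embryo 1, and 842 and 756 in embryos 2 and 3 (51.8% and 56.6% maternal), so that it is not among the 7208 genes. Nnt, in which C57BL/6J carries a known deletion, was at 34.1%, 48.0% and 37.4% of 545, 569 and 612 counts.

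Outside the imprinted domains, many of the most one-sided genes had near-identical copies elsewhere in the genome, and 1 of them can be shown base by base. Mir682 is annotated as a microRNA on the plus strand at chr13:75645046-75645141 (build mm10), and was 100%, 99.6% and 99.9% maternal of 467, 527 and 851 counts. Its 96 bases match a stretch of the messenger RNA of Rpl37a, a ribosomal protein gene on chromosome 1, at positions 182 to 277 of the transcript. The sequences are shown because they give the letters that separate the 2 genes, with the differing base in capitals. In the mature microRNA, the seed (bases 2 to 8) is in capitals. Mir682 and its mature form are from RefSeq (GRCm38.p6), and the Rpl37a stretch is from the GENCODE vM21 protein-coding transcripts.
Mir682: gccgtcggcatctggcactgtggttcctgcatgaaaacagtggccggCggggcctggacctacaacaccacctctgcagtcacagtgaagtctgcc
Rpl37a: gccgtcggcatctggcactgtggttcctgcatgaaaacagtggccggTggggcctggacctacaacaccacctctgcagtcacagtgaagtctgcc
miR-682: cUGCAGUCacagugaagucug

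The stretches agree at 95 of 96 positions, and the difference is T48C, with the base of Rpl37a first, the position counted from 1 at the 5′ end of the stretch and the base of Mir682 last. The mature sequence lies at positions 74 to 94, where Rpl37a is identical. Rpl37a itself was 56.3%, 62.2% and 53.2% maternal of 5211, 6003 and 4919 counts, so the share near 100% was seen at Mir682 and not at the gene that it resembles. The deposited counts come from libraries of polyadenylated RNA, in which a mature microRNA is not captured.

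Of all 7208 genes, 22 (0.305%) were over 90% in every embryo and 2 (0.0277%) were under 10%. By these limits the 22 are part of the 102 maternal genes and the 2 part of the 25 paternal genes. Meg3, Rian and Mirg were 3 of the 22. The one with most counts, Actg1, encodes cytoplasmic gamma actin and was 99.2%, 99.2% and 99% maternal of 6000, 6588 and 6160 counts (chr11:120345690-120348542, minus strand). Ptma, the prothymosin alpha gene, was at 98.7%, 98.8% and 98.2% of 1382, 1609 and 1598 counts. Hmgn2 (99.8%, 99.7% and 99.7%) and Hmgb1 (97.0%, 96.7% and 97.4%) encode chromatin proteins, and Stmn1 (100%, 99.5% and 99.8%) a regulator of microtubules. Rpl21 (96.6%, 95.8% and 97.0%) is a ribosomal protein gene, and Rpl37rt (99.8%, 100% and 99.8%) is annotated as a transcribed processed pseudogene whose closest copy is Rpl37. The other genes of this group with highest counts were Brk1 (100%, 98.9% and 100%), Zbed5 (97.2%, 96.6% and 99.5%), Gm1821 (97.2%, 100% and 99.2%) and Isca1 (90.7%, 90.6% and 91.1%). In each of them the values differed by less than 3 percentage points between embryos.

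A gene could be more maternal than its close copy in every embryo. Gm12070 is a processed pseudogene of Gapdh on chromosome 11, with 99.9% identity to the Gapdh transcript, and was 99.3%, 99.5% and 99.4% maternal of 905, 1102 and 508 counts. Gapdh was at 47.3%, 64.5% and 47.9% of 237, 282 and 169 counts, and lies on chromosome 6. Rpl37rt was at 99.8% or above, and its relative Rpl37 at 63.6%, 73.3% and 60.8% of 3892, 4282 and 3880 counts. Morf4l1-ps1 was at 74.5%, 82.9% and 79.7%, and Morf4l1, its parent gene on chromosome 9, at 44.5%, 65.9% and 47.2%. In another pair both were maternal, since Ubb was at 93.4%, 95.7% and 98.8% and Gm1821, which matches it at 98.5% identity, is listed above. In a further pair the directions were opposite, with Gnpda1 at 79.3%, 78.4% and 73.2% and Gm8615, a pseudogene of it, at 0%, 16.8% and 0.610% of 46, 346 and 164 counts. Gm8615 had too few counts in embryo 1 to be among the 7208 genes.

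Near-identical copies were counted for all genes, as a transcript of another gene that matched at 95% identity or more over at least 30% of the length. Such a copy was found for 36 of the 100 maternal genes that could be matched to the annotation (36.0%), for 11 of the 25 paternal genes (44.0%), and for 321 of 6866 unbiased genes (4.68%). Among the 21 matched genes over 90% in all embryos it was found for 12 (57.1%). Read the other way, 0.966% of genes without a copy were maternal and 0.211% paternal in all embryos, while with exactly 1 copy these were 8.68% and 2.48%. Uncertain assignment of reads between copies affects both members of a pair, and how the deposited counts treat reads with several positions is not stated. The values of genes with a copy are therefore uncertain, and the part of read assignment in them was not tested. No copy was found here for some one-sided genes, such as Rpl21, Brk1 and Zbed5. The search used only the longest transcript of each gene, protein-coding where there was 1. It can therefore miss copies of a shorter form, and it does not see copies that are not annotated.

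**Figure D4:**
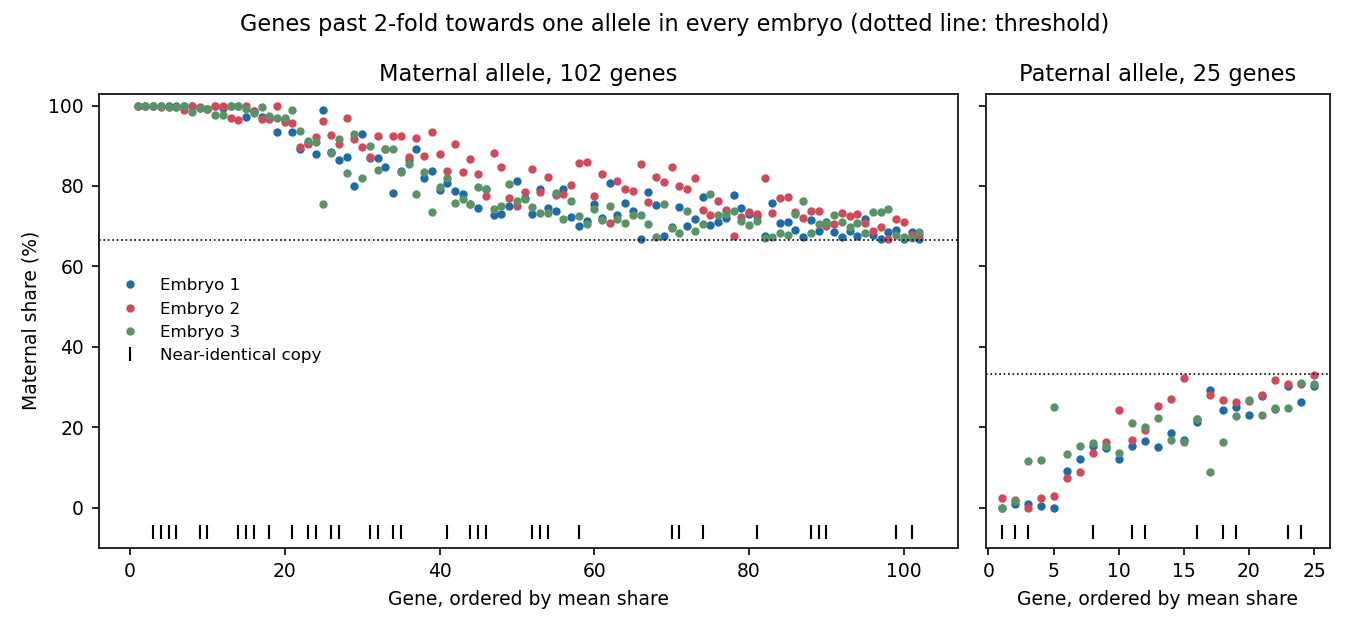
Maternal share in percent (y axis) in embryos 1, 2 and 3 for the 102 genes over 66.7% and the 25 genes under 33.3% in every embryo, ordered by mean share (x axis). Ticks mark the 36 and 11 genes with a near-identical copy, and 22 genes stay over 90% and 2 under 10% in all 3 embryos.

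Paternal genes were fewer. Their median log2 ratio was -1.95, beside 1.78 for the maternal genes, and the 2-fold limits that chose the genes in part set both values. Besides Mrpl23, only Entpd4 was under 10% in all embryos, at 0%, 2.46% and 0% of 190, 122 and 141 counts, where the counts of 0 allow up to 1.58% and 2.13%. Entpd4 encodes a nucleotide-hydrolysing enzyme, Entpd4b matches it at 100% identity, and its edgeR adjusted p was 0.0725. Cdk2ap1, a cell cycle gene, was at 15.2%, 13.7% and 16% of 723, 688 and 826 counts. Snrpd2, a splicing factor gene for which no copy was found, was at 14.9%, 16.3% and 15.3% of 309, 300 and 405 counts. Btf3 (16.6%, 19.2% and 19.9%), the lysyl oxidase gene Loxl2 (15.3%, 16.9% and 21.2%), Rwdd1 (21.3%, 22.2% and 22.1%) and the ribosomal gene Rps21 (25%, 26.4% and 22.9%) completed the most strongly called of them. The 3 values of each of these genes lay within 6 points.

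By edgeR's quasi-likelihood test 36 genes (0.499%) were called in the maternal and 12 (0.166%) in the paternal direction, compared with 44 (0.407%) and 15 (0.139%) of all 10805 genes fitted. Each of these 36 and 12 was also past the 2-fold limit in every embryo. The test and that limit use the same counts of the same embryos, so the overlap is not independent evidence. The lowest adjusted p was that of Actg1, at a log2 ratio of 6.83 (SE 0.130, edgeR adjusted p = 0.000949). Gm12070 followed at 7.43 (edgeR adjusted p = 0.00243) and Ptma at 6.09 (0.00324). Hmgn2 had a log2 ratio of 8.31, Rpl21 of 4.77 and Hmgb1 of 5.02. On the paternal side Cdk2ap1 was at -2.51 (SE 0.137, edgeR adjusted p = 0.0118), Btf3 at -2.13 (0.0166) and Mrpl23 at -5.99 (0.0213). A near-identical copy was found for 19 of the 36 and 7 of the 12. TMM scaling of the alleles, which moved the median log2 ratio of all genes from 0.19 to -0.01, gave 54 and 26 calls, and 35 of the 36 and all 12 were among them. Without embryo 3, 0 genes were called by edgeR's test in either direction, where 471 and 52 had an unadjusted p under 0.05. The mean shares of the 81 named genes give no check, since leaving out 1 of 3 values cannot move a mean past their SD. Without embryo 2 there were 15 and 3 calls and without embryo 1 99 and 24. Replicates are separate embryos, and 3 of them leave few degrees of freedom for a gene of variable ratio.

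The maternal genes lay on 18 of the 19 autosomes and the paternal genes on 14. Chromosome 12 held 8 maternal genes of 250 (3.20%) and chromosome 7 held 2 maternal and 6 paternal genes of 566. Without embryo 2, 113 genes were maternal and 35 paternal by over 2-fold in both others, and without chromosomes 6 and 9 there were 88 and 24.

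By symbol, 5 of 56 genes named Rpl or Rps and a number were maternal (Rpl5, Rpl14, Rpl21, Rpl37rt and Rps19) and 2 paternal (Rpl28 and Rps21) in all embryos, where the shares over all genes are 1.42% and 0.347%. Rplp0 (72.6%, 73.1% and 71.2%) and Rplp1 (88.3%, 92.6% and 88.3%), ribosomal protein genes outside this naming and chosen after their values were seen, were maternal and called as well. Rps19, whose 6 copies include Rps19-ps6, was at 71.1%, 70.1% and 70.9% of 2783, 2296 and 2200 counts. Rpl14 was at 69.8%, 84.6% and 69.5%, Rpl5 at 68.6%, 67.7% and 67.1%, and Rpl28 at 24.2%, 26.9% and 16.3%. Of 149 zinc finger genes 1 was maternal, Zfp36l1, which encodes an RNA-binding protein (78.0%, 83.6% and 76.9% of 395, 262 and 147 counts), and 0 were paternal. Of 140 predicted or clone-named genes 5 were maternal and 2 paternal. All 4 Hox genes with enough counts lay at 40% to 60% in embryos 1 and 3, as did 78.8% of all genes.

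At the 2-fold limits the choice of genes turned on small differences. Just inside on the maternal side were Eif2s1, with a lowest share of 66.7% in embryo 1 (67.9% and 68.7% in the others), and Aplf, with 66.8%. Ifngr1 and Vill were at exactly 2-fold in 1 embryo, which is not over it. Just inside on the paternal side were Hmgb2, with a highest share of 33.0%, and Ulk4, with 32.1%, both in embryo 2. Just outside were Dpp7, at 33.3% of 111 counts in embryo 1, and Tuba1a, at 34.8%.

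Levels of the same genes in oocytes had no part in choosing them. They are totals without allelic information, at an earlier stage, so they do not measure the maternal share in embryos. Counts of 8 double mutant and 18 wild-type fully grown oocytes (FGOs), each a single cell with 11510790 to 17216121 counts, were put into 1 quasi-likelihood fit (edgeR) of all 42 FGO libraries. That fit also held 8 FGOs with the Dnmt3L mutation alone and 8 with the Dnmt3a mutation alone, which entered its estimate of the spread. How many females gave these cells is not known here, and cells of 1 female are not independent. The FGO p-values measure the spread between cells. Of 15726 genes tested, 260 (1.65%) were called, 28 (0.178%) of them higher and 232 (1.48%) lower in the double mutant. Of the 91 maternal genes tested, 1 was called, and of the 20 paternal genes 0. The 1 was Zfp36l1, with 0.787 ± 0.409 CPM (SD, n = 18) in wild-type and 0.276 ± 0.160 CPM (SD, n = 8) in double mutant FGOs, and a log2 difference of -1.50 (SE 0.415, edgeR adjusted p = 0.0164). With wild-type replicates 1 to 8 alone, Zfp36l1 did not reach the minimum count. The median difference was -0.03 for the maternal and 0.06 for the paternal genes on the log2 scale, beside -0.01 over all genes tested.

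Peg10 and Sgce, with shares near 50% in embryos 1 and 3, were higher in double mutant FGOs. The lowest, median and highest level of Peg10 was 4.00, 8.45 and 34.0 CPM in wild-type and 12.9, 48.5 and 71.5 CPM in double mutant FGOs, so that the groups overlapped at their edges. The log2 difference was 2.02 (SE 0.306, edgeR adjusted p = 3.29e-05), and that of Sgce was 1.26 (SE 0.260, edgeR adjusted p = 0.00168). Without wild-type replicates 9 to 18, Sgce had an adjusted p of 0.159 and Peg10 of 0.0171. Of the 28 listed paternal-allele genes 21 were tested in FGOs, where these 2 were called higher and 1 lower. Of 20 listed maternal-allele genes tested, 0 were called. Over all genes tested, 0.178% were called higher and 1.48% lower. None of the 5 genes of the paternally methylated domains tested was called, although Meg3, at 8.43 ± 2.57 CPM in wild-type and 4.95 ± 1.28 CPM in double mutant FGOs, had an adjusted p of 0.0159 at a log2 difference of -0.77, under the 2-fold limit. Peg3 (0.20, SE 0.178, edgeR adjusted p = 0.479) and Mest (0.20, SE 0.064, edgeR adjusted p = 0.0367) did not pass both limits, and the levels of Dnmt3a and Dnmt3l differed by 0.04 and -0.06.

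The X chromosome, which was left out of the counts above, differed between the embryos. In embryo 1 the median share over 235 genes was 100% and paternal counts made up 0.526% of 200993. Its Xist, the noncoding RNA of the inactive X, had 25 counts, against 8289 and 6528 in embryos 2 and 3. There the median X-linked share was 83.8% and 66.0%. The 2 genes of embryo 1 under 90% were Hccs, at 47.6%, and Mid1, at 33.5%, which lie near the end of the X, with starts at 169250193 and 169685199.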

How the data were processed

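Embryo libraries of polyadenylated RNA were sequenced by the authors, who aligned reads to mm10 with STAR and deposited raw allele-specific counts per gene, in 1 maternal and 1 paternal table. The methods name featureCounts and HTSeq for counting. The tool that assigned reads to alleles, the annotation release, the strand setting and the treatment of reads with several positions are not given in the sources used here. For FGOs, the deposited counts were raw counts per gene of single cells. The 3 columns that name the embryos were used, and 8 other columns of the allelic tables, which match no sample of the series, were not. Columns were matched to the embryos by replicate number. Coordinates came from the tables (23322 genes) or RefSeq (1011), and 88 genes had none.

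Both allelic libraries of an embryo were given its allelic total as library size. edgeR 4.0.16 in R 4.3.3 was run with quasi-likelihood fits and the embryo as a block (filter of 10 allelic counts in each embryo, adjusted p under 0.05 by Benjamini-Hochberg, fold over 2). FGOs were compared with TMM scaling and a minimum count of 10. Alternatives included TMM and DESeq2 1.42.0. Both tests were tested on simulated data. Copies were sought with blastn 2.17.0 against GENCODE vM21 transcripts (6991 genes matched, 217 not), and figures drawn with matplotlib 3.10.9. Levels summed over both alleles were compared after adding 1 CPM.

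Genes were named by rule: those over 90% or under 10% in all embryos (up to 15 a direction), the 8 of lowest p called in each direction, members of the gene lists, genes nearest to the 2-fold limits and genes of runs. The genes, lists and thresholds were chosen with earlier results of these data known. P-values of the allelic test measure the spread between the 3 embryos, and those of the FGO test the spread between single cells.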

Additional observations from a re-analysis of the deposited data

Results flagged for a closer look

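Several values lay outside the 7208 genes compared. In embryo 1, X-linked genes gave 1057 paternal counts of 200993, or 0.526%, above the limit that a count of 0 allows. Most of these paternal counts were of Hccs (47.6% maternal of 991 counts) and Mid1 (33.5% of 463). Of 235 X-linked genes with at least 100 counts in each embryo, 168 had no paternal count in embryo 1. In embryo 2, autosomal genes over 8-fold above the other embryos had a median maternal share of 96.6%. Some marker genes of leukocytes and uterus were detected there, while 4 of 7 leukocyte genes were at 0. Of the uterine and decidual markers, Esr1, Pgr, Prl8a2 and Prl3c1 had most counts in embryo 2 and Cryab and Wnt4 in embryo 1. Ptprc, the pan-leukocyte phosphatase, had 153 counts, 94.8% of them maternal, and Esr1, the estrogen receptor, had 493 counts, 89.0% maternal, while embryos 1 and 3 had 0 and 0 counts of Ptprc and 1 and 1 of Esr1. Dnmt3l had 842 counts in embryo 2 against 0 in embryo 1. What these counts come from was not tested. In the FGOs, Igf2 in 1 of 8 double mutant cells stood apart from the rest (5.57 CPM, median 2.23 CPM), with a gap of 0.585 of the range. Chance marks about 1 in 20 groups in this way, and 11 genes were examined.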

How the results depend on the processing

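The median maternal share, 53.2% as a mean over embryos, stayed between 51.2% and 54.2% when each embryo was left out and between 52.4% and 53.8% with other count minimums, summed counts or without chromosomes 6 and 9. The counts of biased genes moved more. With a minimum of 200 counts there were 62 maternal and 14 paternal genes beyond 2-fold in place of 102 and 25, and with the whole Wilson interval past the limit 62 maternal and 18 paternal. Leaving out each embryo in turn gave 113 to 173 maternal and 29 to 35 paternal genes, the highest maternal count without embryo 1, as fewer embryos had to pass. Dividing the odds by the chromosome's median odds gave 81 and 32.

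The edgeR calls, 36 maternal and 12 paternal, became 54 and 26 with TMM scaling. DESeq2 called 207 and 39, a fit of the 7208 genes alone 123 and 30, robust estimation 55 and 12 and a fit without the replicate block 44 and 10. Leaving out each embryo gave 0 to 99 maternal and 0 to 24 paternal calls, the 0 without embryo 3 and 15 and 3 without embryo 2. Of the 36 and 12 calls, all kept an adjusted p under 0.05 without embryo 1, 13 and 3 did so without embryo 2 and 0 without embryo 3. TMM scaling without embryo 2, an alternative chosen after seeing the data, gave 13 and 5. The cause of these changes was not tested. Of the 81 shares of named genes, 22 moved by more than their spread between embryos when odds were divided by the chromosome's median, and 7 crossed 50%, all of them genes not biased by 2-fold (Mest, Gnas, Trappc9, Dnmt1, Tet2, Trim28 and Zfp445). Without embryos 1, 2 and 3 in turn, 1, 9 and 1 crossed it.

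In FGOs, 260 genes were called, 110 (8 higher, 102 lower) with wild-type replicates 1 to 8 only and 50 (0 higher, 50 lower) with the replicate number as a block. The numbers do not pair the cells: deviations of same-numbered cells correlated at -0.48 to 0.40, with 2 of 8 over 0.1, and 1 of 8 cells matched its own number best. Under the block Peg10 had an adjusted p of 0.241 and Sgce of 0.159. Depth limits the shares of genes with a mean of 100 to 200 counts, where counting alone gives an SD of 3.92 to 4.22 points.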
